A study of Mus musculus with 8 samples.

Results

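Tuft cells are a sparse chemosensory lineage of the intestinal epithelium. The transcription factor Pou2f3 is required to make them, the taste-type cation channel Trpm5 transmits their stimulus, and they release Il25, acetylcholine and eicosanoids, by which they signal to type 2 lymphoid cells, nerves and neighbouring epithelium. The 8 genes described here are widely used to recognize these cells: the transcription factors Pou2f3 and Gfi1b, the channel Trpm5, the microtubule-associated kinase Dclk1, the actin-binding protein Avil (advillin), the adaptor Sh2d6, and the eicosanoid enzymes Ptgs1 (cyclooxygenase 1) and Alox5 (5-lipoxygenase). They were chosen by symbol, each had 1 row among the 52143 genes of the deposited table, and although no value entered that rule, the set was chosen with earlier results of these data known.

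RNA-seq had been performed on the distal colon of mice at baseline. The 4 control samples came from Villin1-Cre-ERT mice, which carry a tamoxifen-inducible Cre recombinase driven by the Villin1 promoter. The 4 Siglec-XII samples came from SIGLEC12-Villin1-Cre-ERT mice, in which the same Cre removes a stop cassette in front of 1 copy of human SIGLEC12 inserted at ROSA26. Both groups therefore carried the Cre and were given tamoxifen (10 mg/ml) on 5 days from an age of 8 weeks, and colons were taken 7 days after the last dose. The Villin1 promoter is active in the intestinal epithelium, so the muscle, nerve, vascular and immune cells of the same tissue piece are not targeted by it. The submitters' design text speaks of 3 mice per condition while the labels list 4 samples per group, and the study's methods mention technical replicate libraries, so p-values measure the spread between these 8 samples, part of which may be technical. The values are TPM, abundances that are scaled by transcript length and can therefore be set side by side for different genes. They keep no record of how many reads stood behind a value.

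The tissue pieces carried the intestinal epithelium that the labels imply, and a second epithelium beside it. The mean of 10 markers of intestinal epithelium lay between 9.32 and 9.82 log2(TPM + 1) in control samples and between 9.38 and 9.83 in Siglec-XII samples. The mean of 8 markers of squamous epithelium (Krt5, Krt14, Krt6a, Krt13, Krt4, Trp63, Dsg3 and Sprr1a, a list chosen after the data had been seen) was 9.96, 6.76, 6.21 and 9.05 log2(TPM + 1) in control samples 1 to 4 and 6.43, 8.03, 5.38 and 5.53 in Siglec-XII samples 1 to 4. Control samples 1 and 4 were the highest on this list, followed by Siglec-XII sample 2. The difference of each tuft cell gene is also given without these 2 controls. That refit leaves out squamous-rich samples from the control group only and keeps Siglec-XII sample 2. The mean of 6 smooth muscle markers lay between 6.48 and 7.17 in controls and between 5.37 and 6.50 in Siglec-XII samples, and that of 7 neutrophil and macrophage markers between 1.87 and 2.83 in controls and between 1.25 and 1.59 in Siglec-XII samples, the latter without overlap. The leukocyte, endothelial and enteric neuron means were likewise lower without overlap, as were 4.06% of single genes that reached 1 TPM in at least 4 samples. For the squamous markers, a fit with their mean as a covariate, chosen after the data had been seen, is given beside each of the 8 tuft cell genes below. No such fit was made for the smooth muscle, neutrophil and macrophage markers. The smooth muscle mean was correlated with each tuft cell gene, which is given below. The part of these cells in the group differences of the tuft cell genes was not tested.

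**Figure D1:**
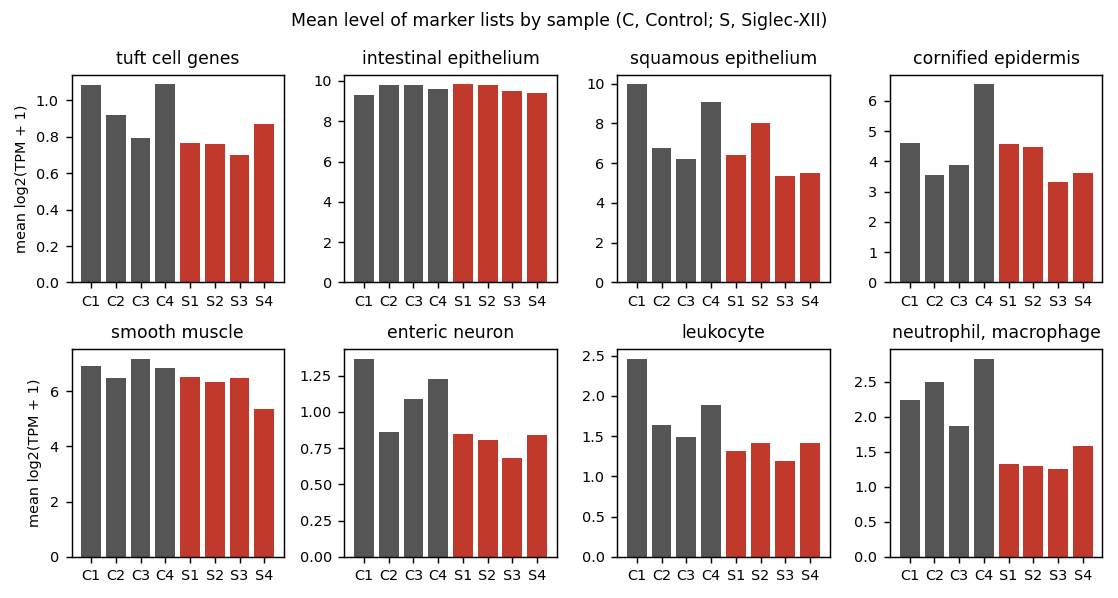
Each panel plots the mean log2(TPM + 1) of a marker list (vertical axis, from 0) in control samples C1 to C4 (grey) and Siglec-XII samples S1 to S4 (red). The mean of intestinal epithelial markers lay between 9.32 (C1) and 9.83 (S1), and squamous and cornified markers were highest in control 1 and control 4 respectively. The neutrophil and macrophage, leukocyte and enteric neuron means did not overlap between the groups.

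All 8 tuft cell genes were low in bulk distal colon. In control samples Ptgs1 was the highest at 2.65 ± 1.08 TPM (SD, n = 4), followed by Trpm5 at 1.32 ± 0.430, Sh2d6 at 1.23 ± 0.226, Avil at 1.06 ± 0.432, Pou2f3 at 0.888 ± 0.694, Dclk1 at 0.794 ± 0.241, Alox5 at 0.526 ± 0.121 and Gfi1b at 0.245 ± 0.222. Every gene in this order overlapped its neighbour in range, so the order of neighbours is not resolved by 4 samples. Only 8 of the 28 pairs had ranges that did not meet, among them Ptgs1 above Dclk1, Alox5 and Gfi1b. Ptgs1 alone reached 1 TPM in 8 of 8 samples, Sh2d6 did so in 6, Trpm5 in 4, Avil in 2 and Pou2f3 in 1, whereas Dclk1, Alox5 and Gfi1b did so in none. For scale, in controls the enteroendocrine hormone gene Pyy, a product of another sparse epithelial lineage, stood at 356 ± 37.9 TPM, and Vil1, the epithelial gene whose promoter drives the Cre, at 228 ± 50.9 TPM (SD, n = 4).

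The promoters of Trpm5 and Avil are shown because these 2 genes had the highest correlation among the members. They are the 250 bases before each RefSeq start on GRCm38.p6, given 5′ to 3′ on the gene's own strand, Trpm5 from the minus strand of chr7:143094643-143094892 and Avil from the plus strand of chr10:127000459-127000708. Capitals mark the 7 letters ATGCAAA or their reverse complement TTTGCAT.
Trpm5: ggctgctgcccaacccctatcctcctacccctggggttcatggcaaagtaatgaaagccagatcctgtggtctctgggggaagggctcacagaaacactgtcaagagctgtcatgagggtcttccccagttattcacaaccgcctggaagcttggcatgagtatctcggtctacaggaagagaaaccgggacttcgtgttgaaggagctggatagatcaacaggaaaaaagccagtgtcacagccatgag
Avil: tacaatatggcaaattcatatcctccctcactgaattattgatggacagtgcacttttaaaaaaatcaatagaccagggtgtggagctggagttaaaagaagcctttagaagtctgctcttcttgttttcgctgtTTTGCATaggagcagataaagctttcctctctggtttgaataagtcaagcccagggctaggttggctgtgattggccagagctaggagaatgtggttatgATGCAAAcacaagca

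Pou2f3 belongs to the POU family, whose classical binding motif is the octamer ATGCAAAT. Neither the octamer nor its reverse complement was present in the 8 promoter windows of the 7 members that had an entry (300 bases each, 2 windows for Dclk1), while 1.74% of 32851 mouse promoter windows held it. The first 7 letters of the octamer, a search added after the sequences had been seen, occurred on both strands of the Avil window, beginning 15 and 115 bases before its start, and in none of the other member windows. Of all promoter windows, 4.63% held these 7 letters at least once. The count of letters is a description of these windows only.

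The question put to the tuft cell genes was whether their RNA differed between colons whose epithelium expressed Siglec-XII and control colons. None of the 8 genes passed the test. Their differences were tested with limma on log2(TPM + 1) among 13164 genes that reached 1 TPM in at least 4 samples, a filter that Ptgs1, Trpm5 and Sh2d6 passed, and for the other 5 among 18897 genes that reached 0.1 TPM in at least 4 samples. At an adjusted p of 0.05 or less, 0.038% of the first set and 0.0265% of the second were called. In the second fit, which held all 8 members, none had a p of 0.05 or less without adjustment, whereas 7.53% of all genes tested were lower in Siglec-XII samples at that limit. In whole tissue, fewer tuft cells and less RNA of a gene per tuft cell cannot be told apart.

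All 8 log2 differences (Siglec-XII minus control) were below 0, from -0.41 for Ptgs1 to -0.01 for Alox5, but Dclk1, Alox5, Gfi1b and Sh2d6 turned above 0 when each sample was centred on its median gene, Dclk1 and Alox5 also under quantile normalization, and Trpm5 with array weights. Median centring takes the same amount within a sample from every gene, while the pseudocount of 1 compresses the changes of genes below 1 TPM. Such centring can therefore overshoot for low genes, and whether it did so here was not tested. Without centring, Dclk1 and Alox5 also turned above 0 without controls 1 and 4 (0.06 and 0.05) and with the squamous covariate (0.01 and 0.03). No direction of a change is read from these signs. The median difference of the 8 was -0.19, beside -0.12 over the 18897 genes tested, 75.2% of which were below 0. The shift over all genes lay in 2 libraries. Over the 13164 genes at 1 TPM, a sample's median gene lay 0.23 and 0.37 below the mean of the 8 sample medians in Siglec-XII samples 3 and 4 on the log2 scale, and between -0.02 and 0.18 from it in the other 6 samples, and without those 2 samples the median difference of all these genes was 0.003. The members' differences without those 2 samples ran from -0.37 for Ptgs1 to 0.0053 for Alox5, the only member then above 0. The summed level of the 8 genes was 9.95, 7.42, 6.82 and 10.6 TPM in control samples 1 to 4 and 6.06, 6.06, 5.29 and 7.11 TPM in Siglec-XII samples 1 to 4, so that Siglec-XII sample 4 exceeded control 3. Controls 1 and 4, the highest of the 8 samples in this sum, were also those highest in squamous markers.

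**Figure D2:**
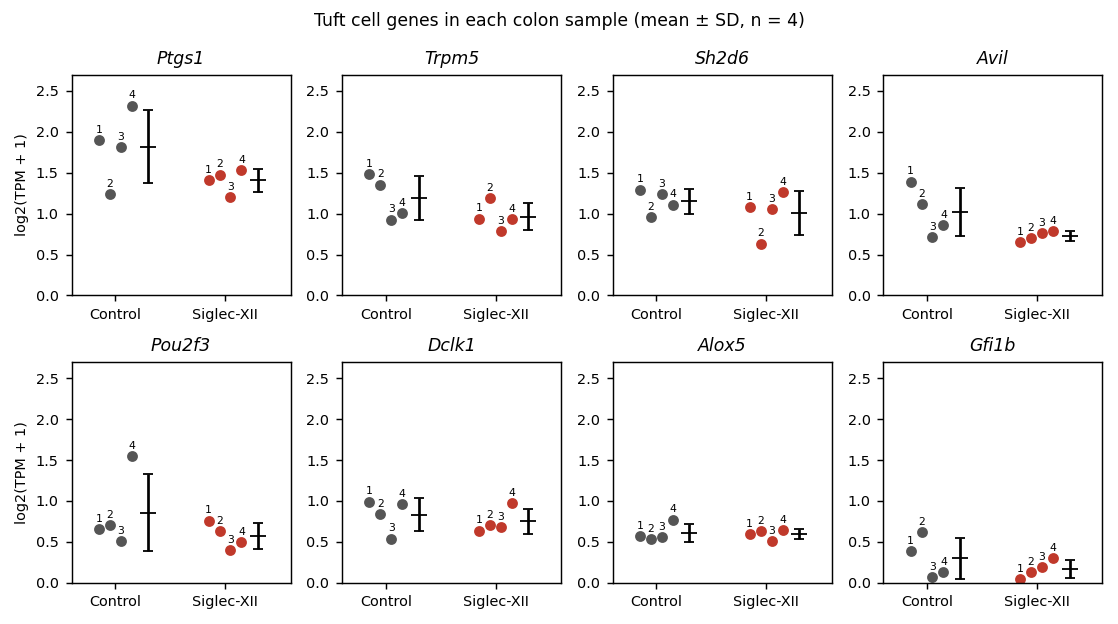
Each panel plots 1 gene as log2(TPM + 1) in the 4 control (grey) and 4 Siglec-XII (red) samples, with the sample number above each point and the mean ± SD (n = 4) beside each group. The groups overlap in every panel, and the largest SD is that of Pou2f3 among controls, where sample 4 lies at 1.55.

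Pou2f3 is the factor on which the lineage depends, and it is also expressed in stratified epithelium, where it was first described in keratinocytes. Pou2f3 (ENSMUSG00000032015, chr9:43123939-43210369 on GRCm38, minus strand) was 0.580, 0.627, 0.424 and 1.92 TPM in control samples 1 to 4 and 0.694, 0.547, 0.315 and 0.412 TPM in Siglec-XII samples 1 to 4. Control 4 alone exceeded 1 TPM, and the other 3 controls lay within the range of the Siglec-XII samples. The log2 difference was -0.28 (standard error 0.214, 95% interval -0.77 to 0.20, adjusted p = 0.588 from limma). It was -0.05 without control 4, -0.04 without controls 1 and 4, -0.16 without Siglec-XII samples 3 and 4, and -0.11 with the squamous covariate.

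Gfi1b, a zinc-finger repressor that tuft cells share with megakaryocytes and erythroid cells, was the lowest member. It lies at chr2:28609450-28621982 (ENSMUSG00000026815, minus strand). Its values were 0.304, 0.533, 0.0481 and 0.0936 TPM in control samples 1 to 4 and 0.0344, 0.0941, 0.143 and 0.234 TPM in Siglec-XII samples 1 to 4. Controls 1 and 2 were above every Siglec-XII sample while controls 3 and 4 were within their range. It differed by -0.13 on the log2 scale (standard error 0.123, 95% interval -0.41 to 0.15, adjusted p = 0.648 from limma). It was -0.02 without control 2, -0.21 without control 3 or without Siglec-XII samples 3 and 4, -0.17 without controls 1 and 4, and -0.15 with the squamous covariate. The mean of 5 platelet and megakaryocyte markers was 1.73 to 2.34 log2(TPM + 1) in controls and 1.72 to 2.02 in Siglec-XII samples.

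Trpm5 (ENSMUSG00000009246, chr7:143069153-143094642, minus strand), the calcium-activated channel at the end of the taste cascade, was 1.80, 1.56, 0.903 and 1.01 TPM in control samples 1 to 4 and 0.918, 1.28, 0.725 and 0.912 TPM in Siglec-XII samples 1 to 4. Controls 1 and 2 were the highest samples, and controls 3 and 4 fell among the Siglec-XII samples. Its log2 difference was -0.23 (standard error 0.167, 95% interval -0.61 to 0.15, adjusted p = 0.553 from limma). It was -0.13 without control 1 or without Siglec-XII samples 3 and 4, -0.18 without controls 1 and 4, and -0.09 with the squamous covariate. The Tssc4 gene runs antisense through the end of Trpm5 and was far higher, between 3.98 and 4.51 log2(TPM + 1), and 2.89% of the 31-base windows of Trpm5 transcripts also occur in it.

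Dclk1 (ENSMUSG00000027797, chr3:55242364-55539068, plus strand), which labels tuft cells in mouse intestine and is also expressed in neurons, was 0.987, 0.793, 0.454 and 0.943 TPM in control samples 1 to 4 and 0.557, 0.631, 0.605 and 0.970 TPM in Siglec-XII samples 1 to 4. The lowest of the 8 samples was a control and no Siglec-XII sample lay below it. A log2 difference of -0.08 was measured (standard error 0.130, 95% interval -0.38 to 0.21, adjusted p = 0.788 from limma). It was -0.03 without control 1, -0.04 without control 4 or Siglec-XII sample 1, -0.18 without control 3, -0.16 without Siglec-XII sample 4 or without samples 3 and 4 of that group, 0.06 without controls 1 and 4, and 0.01 with the squamous covariate. Its relative Dclk3, at 1.75 ± 0.359 TPM, was above Dclk1 in controls (SD, n = 4), and Dcx was at 0.0418 ± 0.00687 TPM there. In Siglec-XII samples 1 to 4 Dclk3 was 1.88, 1.24, 0.917 and 0.494 TPM, which in sample 4 was below Dclk1.

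Avil (ENSMUSG00000025432, chr10:127000709-127020994, plus strand), which bundles actin in the tuft and is also expressed in sensory neurons, had the smallest unadjusted p of the members. It was 1.62, 1.17, 0.644 and 0.815 TPM in control samples 1 to 4 and 0.571, 0.627, 0.694 and 0.729 TPM in Siglec-XII samples 1 to 4. Siglec-XII samples were tightly grouped, and control 3 lay among them. Between groups the log2 difference was -0.29 (standard error 0.148, 95% interval -0.63 to 0.04, adjusted p = 0.537 from limma), and its unadjusted p was 0.0773. It was -0.17 without control 1, -0.40 without control 3 (unadjusted p = 0.0236, adjusted p = 0.441 from limma), -0.19 without controls 1 and 4, -0.34 without Siglec-XII samples 3 and 4, and -0.20 with the squamous covariate. The Tsfm gene overlaps Avil on the opposite strand at 4.49 to 5.01 log2(TPM + 1), and 4.11% of the 31-base windows of Avil transcripts occur in another gene, nearly all in Tsfm.

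Sh2d6 (ENSMUSG00000052631, chr6:72513641-72521707, minus strand), an adaptor with an SH2 domain, was 1.45, 0.940, 1.35 and 1.16 TPM in control samples 1 to 4 and 1.11, 0.552, 1.08 and 1.40 TPM in Siglec-XII samples 1 to 4. The groups overlapped over most of their range, and 1 Siglec-XII sample lay below all controls. It differed by -0.14 on the log2 scale (standard error 0.164, 95% interval -0.51 to 0.23, adjusted p = 0.677 from limma). It was -0.02 without Siglec-XII sample 2, -0.23 without Siglec-XII sample 4, -0.29 without samples 3 and 4 of that group, -0.09 without control 1 or without controls 1 and 4, and -0.21 with the squamous covariate.

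Ptgs1 (ENSMUSG00000047250, chr2:36230426-36252272, plus strand), which makes the precursor of prostaglandins and is expressed by many cell types outside the epithelium, was 2.73, 1.35, 2.52 and 3.996 TPM in control samples 1 to 4 and 1.66, 1.78, 1.30 and 1.90 TPM in Siglec-XII samples 1 to 4. Controls 1, 3 and 4 were above every Siglec-XII sample, and control 2 lay within their range. The log2 difference was -0.41 (standard error 0.220, 95% interval -0.91 to 0.09, adjusted p = 0.515 from limma). It was -0.24 without control 4, -0.12 without controls 1 and 4, -0.37 without Siglec-XII samples 3 and 4, -0.22 with the squamous covariate, and -0.61 without control 2 (unadjusted p = 0.00895, adjusted p = 0.730 from limma).

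Alox5 (ENSMUSG00000025701, chr6:116410077-116461178, minus strand), which starts leukotriene synthesis in tuft cells and in myeloid cells, was 0.482, 0.446, 0.468 and 0.706 TPM in control samples 1 to 4 and 0.509, 0.547, 0.427 and 0.566 TPM in Siglec-XII samples 1 to 4. Control 4 stood above the other 7 samples, which lay within a narrow band. The log2 difference was -0.01 (standard error 0.086, 95% interval -0.20 to 0.18, adjusted p = 0.962 from limma). It was 0.04 without control 4, 0.05 without controls 1 and 4, 0.02 without Siglec-XII sample 3, 0.03 with the squamous covariate, and between -0.04 and -0.01 with any other single sample left out. The interval for Alox5 was the narrowest of the 8 on this scale, where a pseudocount of 1 compresses the changes of genes below 1 TPM.

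**Figure D3:**
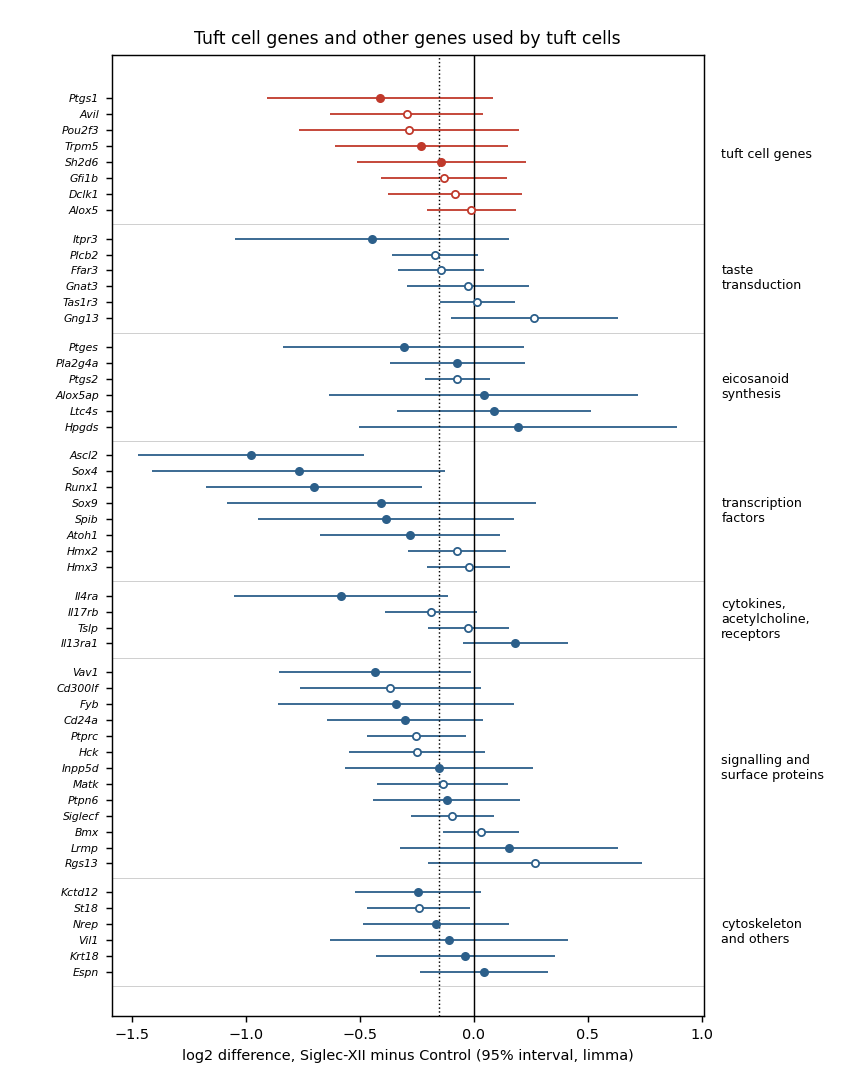
Points give the log2 difference (Siglec-XII minus control) of the 8 tuft cell genes (red) and of other genes used by tuft cells, by role (blue), with 95% intervals from limma. Filled points passed the filter at 1 TPM and open points the filter at 0.1 TPM, the solid line is at 0 and the dotted line at the median of all 13164 genes (-0.15). Every red interval covers 0.

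The wider set of genes used by tuft cells gave no call either. Of 49 listed genes, 48 had a row, and 25 passed the filter at 1 TPM. None of the 25 had an adjusted p of 0.05 or less, and 5 were lower and 0 higher at an unadjusted p of 0.05 or less, beside 7.67% of all genes tested that were lower at that limit. Their median log2 difference was -0.24, against -0.15 over all genes tested, and 19 of the 25 differences were below 0, beside 78.1% of all genes tested. The split depended on the scale, since with median centring 13 differences were below 0 and 3 genes were lower and 2 higher (Il13ra1 and Lrmp) at an unadjusted p of 0.05 or less. The 5 lower genes became 2 without controls 1 and 4 and 2 with the squamous covariate (Ascl2 and Vav1 in both). Without Siglec-XII samples 3 and 4 there was 1 (Ascl2). Over all 13164 genes, those at this limit in either direction fell as well, from 1167 to 561, 279 and 362 in these refits. At the filter of 0.1 TPM, 43 were tested, 33 differences were below 0, the median was -0.14, and 6 were lower and 0 higher without adjustment. Of all genes at that filter, 75.2% were below 0, the median was -0.12, and 7.53% were lower without adjustment.

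In the taste cascade, Itpr3, the calcium-release channel, was the highest gene at 26.4 ± 4.45 TPM in controls and 20.03 ± 7.92 TPM in Siglec-XII samples (SD, n = 4). The taste G protein Gnat3 was 0.567 ± 0.164 TPM in controls and 0.540 ± 0.190 TPM in Siglec-XII samples. Its partner Gng13 went the other way in value, from 0.474 ± 0.173 to 0.797 ± 0.422 TPM, without passing the test (adjusted p = 0.543 from limma), and the phospholipase Plcb2 was 0.221 ± 0.132 and 0.0812 ± 0.0351 TPM. Tas1r3 stood at 0.261 ± 0.0498 TPM and Ffar3 at 0.293 ± 0.0936 TPM in controls, while Gnb3, Tas1r1 and Sucnr1 were lower still. None of the 6 genes of this cascade that were tested at the filter of 0.1 TPM passed p of 0.05 without adjustment.

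In eicosanoid synthesis, the phospholipase Pla2g4a, which releases arachidonic acid, was 23.4 ± 3.39 TPM in controls and 22.1 ± 2.12 TPM in Siglec-XII samples (SD, n = 4). The prostaglandin E synthase Ptges was 4.49 ± 1.21 and 3.47 ± 1.08 TPM. Hpgds, which makes prostaglandin D2, was 3.93 ± 1.52 and 4.75 ± 2.31 TPM, Alox5ap, the partner of Alox5, 2.72 ± 1.40 and 2.80 ± 1.22 TPM, and Ltc4s 1.89 ± 0.669 and 2.04 ± 0.416 TPM. Of the 6 genes, 3 differences were below 0 and 3 above, none with a p of 0.05 or less, and the inducible cyclooxygenase Ptgs2 was at 0.157 ± 0.0645 TPM in controls.

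The transcription factors held the largest differences. Ascl2, a factor of crypt base stem cells that is not restricted to tuft cells, was 15.8, 14.3, 9.08 and 9.45 TPM in control samples 1 to 4 and 7.82, 4.91, 5.05 and 4.73 TPM in Siglec-XII samples 1 to 4. The groups did not overlap, as was so, in the same direction, for 4.06% of all genes tested at 1 TPM, and the log2 difference was -0.98 (standard error 0.218, unadjusted p = 0.00154, adjusted p = 0.515 from limma). It was at an unadjusted p of 0.05 or less (limma) in each of the 21 alternatives run. These refit the same samples, and how many of all genes did the same was not counted. Runx1, a factor of blood cells and epithelium, was 7.61, 4.88, 4.63 and 5.36 TPM in controls and 4.09, 3.77, 2.28 and 2.26 TPM in Siglec-XII samples. Its groups did not overlap either, and it differed by -0.70 on the log2 scale (unadjusted p = 0.00857, adjusted p = 0.515 from limma). Runx1 was above an unadjusted p of 0.05 (limma) without controls 1 and 4, without Siglec-XII samples 3 and 4, and with the squamous covariate. Sox4, reported in tuft cell progenitors, was 10.98 ± 1.78 TPM in controls and 6.46 ± 3.12 TPM in Siglec-XII samples with overlapping groups (log2 difference -0.77, unadjusted p = 0.0243, adjusted p = 0.515 from limma). Atoh1, the secretory lineage factor, was 33.2 ± 5.41 and 27.4 ± 5.97 TPM, Sox9 21.5 ± 5.49 and 16.6 ± 6.54 TPM, and Spib 2.52 ± 1.19 and 1.64 ± 0.565 TPM. Hmx2 and Hmx3 were at 0.259 ± 0.0803 and 0.279 ± 0.105 TPM in controls.

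Among cytokines and receptors, Il4ra, a subunit of the receptors for Il4 and Il13, was 7.73, 7.28, 3.78 and 5.42 TPM in control samples 1 to 4 and 4.16, 3.66, 2.86 and 3.76 TPM in Siglec-XII samples 1 to 4. Siglec-XII sample 1 exceeded control 3, and the log2 difference was -0.58 (unadjusted p = 0.0203, adjusted p = 0.515 from limma). The other subunit of the type II receptor, Il13ra1, was 50.7 ± 4.02 TPM in controls and 57.7 ± 5.77 TPM in Siglec-XII samples. The receptor Il17rb was 0.867 ± 0.114 and 0.638 ± 0.0568 TPM, with a p of 0.0631 before adjustment (limma). Its groups did not overlap, as was so in the same direction for 4.15% of genes at 0.1 TPM. The tuft cell products themselves were near the bottom of the scale. Il25 averaged 0.0667 TPM in controls, Chat, which makes acetylcholine, 0.0931 TPM, and Tslp 0.180 TPM. Of the type 2 cytokines, Il5 and Il13 were listed at 0 in all 8 samples, and Il4 was 1.22 ± 0.481 TPM in controls and 0.652 ± 0.576 TPM in Siglec-XII samples.

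Genes of signalling and surface proteins that tuft cells share with leukocytes included Vav1 (log2 difference -0.43, unadjusted p = 0.0443, adjusted p = 0.515 from limma) and Ptprc, the leukocyte antigen CD45, at 0.761 ± 0.185 TPM in controls and 0.473 ± 0.0218 TPM in Siglec-XII samples (SD, n = 4). The groups did not overlap for Ptprc, as was so in the same direction for 4.15% of genes at 0.1 TPM (log2 difference -0.25, unadjusted p = 0.0269, adjusted p = 0.537 from limma). The other leukocyte markers Cd52, Coro1a and Laptm5 were lower in value as well, and the mean of the 4 leukocyte markers was 1.49 to 2.46 log2(TPM + 1) in controls and 1.20 to 1.42 in Siglec-XII samples. Cd24a and Lrmp were the highest genes of this role, at 241 ± 17.8 and 102 ± 21.9 TPM in controls and 198 ± 42.5 and 115 ± 26.2 TPM in Siglec-XII samples. Rgs13, an inhibitor of G protein signalling, had a difference of 0.27 with a standard error of 0.208. Siglecf, the mouse Siglec that tuft cells carry, was 0.362 ± 0.123 and 0.273 ± 0.0253 TPM. Mast cells also make Alox5 and Ptgs1 products, and of 9 mast cell genes Ms4a2 was listed at 0 in all samples and Cpa3 at 0 in all Siglec-XII samples. Kit, which is not restricted to mast cells, and the chymase Cma1 were higher in mean than any of the 8 tuft cell genes, at 7.11 ± 1.98 and 4.76 ± 1.77 TPM in controls. Hdc, which makes histamine, was 0.0373, 2.27, 0.113 and 1.26 TPM in control samples 1 to 4 and between 0.0157 and 0.179 TPM in Siglec-XII samples. The mean of the 9 genes was 0.68 to 1.02 log2(TPM + 1) in controls and 0.69 to 0.74 in Siglec-XII samples, beside 0.80 to 1.09 and 0.70 to 0.87 for the mean of the 8 tuft cell genes, and the part of mast cells in the latter was not tested. Of the remaining genes, St18 was lower in value (log2 difference -0.24, unadjusted p = 0.0388, adjusted p = 0.537 from limma), and Krt18 and Vil1, which all colonic epithelial cells express, differed by -0.04 and -0.11.

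Whether the members moved together from sample to sample was measured next. Over the 8 samples, 20 of the 28 pairs of members had a Pearson r above 0, with a median of 0.31 and a range from -0.33 to 0.84. After each sample was centred on its median gene 25 pairs were above 0 with a median of 0.50, and within groups 15 were above 0 with a median of 0.19. By a two-sided exact permutation test over all pairings of the samples, 4 of the 28 pairs had p of 0.05 or less and none did after Benjamini-Hochberg adjustment over the 52 relations tested, which were the 28 pairs and each member with the mean of the epithelial, smooth muscle and enteric neuron markers. The deposited values of all pairs come from the same 8 libraries, so a shift of a whole library moves both members of a pair. Median centring subtracts the same value per sample from both members, which can by itself raise r between low genes.

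The 4 pairs fell into 2 sets with no gene in common. Trpm5 and Avil had the highest value (r = 0.84, exact permutation p = 0.0126, adjusted 0.329; Spearman rho = 0.52, p = 0.197, adjusted 0.601), and Gfi1b correlated with Avil (r = 0.75, exact permutation p = 0.0374, adjusted 0.445; rho = 0.79, p = 0.0279, adjusted 0.601). Controls 1 and 2 were the highest samples for all 3 of these genes. Without those samples, which were the farthest from the median of Trpm5 and of Gfi1b, r was -0.12 for Trpm5 and Avil and 0.52 for Gfi1b and Avil, so the first relation rested on them.

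Pou2f3, Alox5 and Ptgs1 formed the other set. Pou2f3 and Alox5 had r = 0.82 (exact permutation p = 0.0436, adjusted 0.445; rho = 0.40, p = 0.327, adjusted 0.629), and Alox5 and Ptgs1 had r = 0.72 (exact permutation p = 0.0428, adjusted 0.445; rho = 0.64, p = 0.0962, adjusted 0.601). Control 4 was the highest sample for all 3 genes. Without control 4 and Siglec-XII sample 3, the farthest from the median, r was -0.33 and -0.06, and both relations rested on those samples. After median centring r was 0.37 for Pou2f3 and Alox5 and 0.50 for Alox5 and Ptgs1. It was 0.89 for Trpm5 and Avil and 0.84 for Gfi1b and Avil on that scale. Between the sets, Pou2f3 had r = 0.09 with Trpm5 (exact permutation p = 0.863, adjusted 0.948; rho = 0.60, p = 0.132, adjusted 0.601) and 0.08 with Avil (exact permutation p = 0.852, adjusted 0.948; rho = 0.14, p = 0.752, adjusted 0.850). Without control 4 these were 0.61 and 0.29, so the low value with Trpm5 rested on that sample, and a separation of the sets was not tested.

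**Figure D4:**
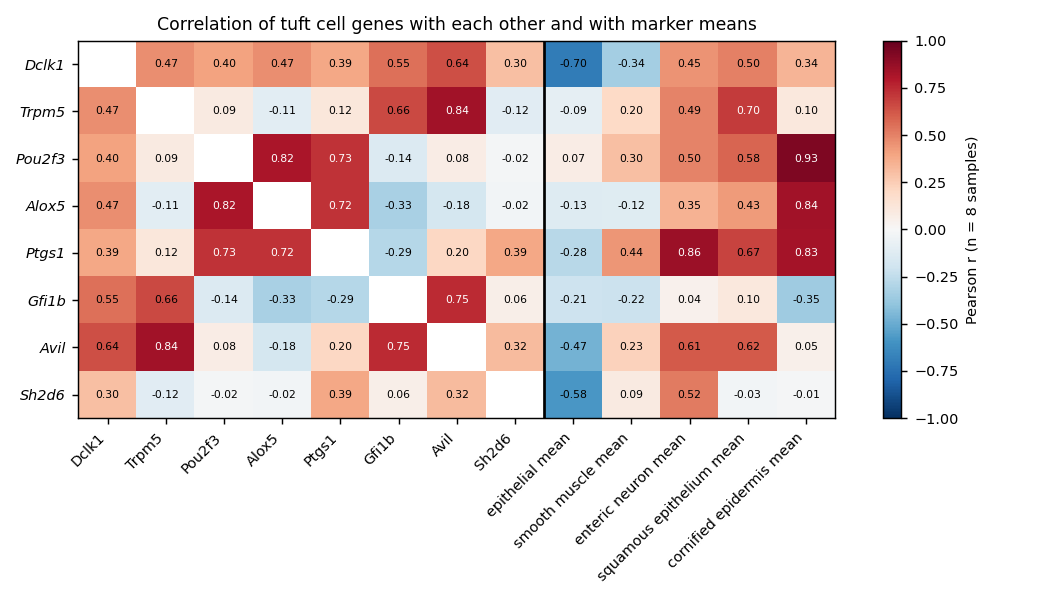
The colour and number in each cell give Pearson r over the 8 samples between a tuft cell gene (rows) and another tuft cell gene or the mean of a marker list (columns, right of the line), both in log2(TPM + 1). Trpm5, Avil and Gfi1b were high with each other, Pou2f3, Alox5 and Ptgs1 were high with each other and with cornified epidermis markers, and none of these relations passed adjustment.

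Of the marker means, the highest relation among the 52 was that of Ptgs1 with the enteric neuron markers (r = 0.86, exact permutation p = 0.00687, adjusted 0.329; rho = 0.76, p = 0.0368, adjusted 0.601). It was 0.85 without controls 1 and 4 and 0.79 within groups. The mean of the 8 enteric neuron markers was 0.86 to 1.37 log2(TPM + 1) in controls and 0.68 to 0.85 in Siglec-XII samples, without overlap. This was not particular to them. The leukocyte and endothelial means and that of the tuft transcription factors (2.62 to 2.86 and 2.03 to 2.58) were also lower without overlap. The smooth muscle and T cell means overlapped. Of single genes tested at 1 TPM, 4.06% were lower without overlap. The epithelial mean had r between -0.70 with Dclk1 and 0.07 with Pou2f3. The smooth muscle mean had r between -0.34 with Dclk1 (exact permutation p = 0.442, adjusted 0.821) and 0.44 with Ptgs1 (exact permutation p = 0.276, adjusted 0.717).

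Markers of cornified epidermis (Flg, Hrnr, Lor, Krt1, Krt10, Krt2, Lce1i and Flg2) were added after the data had been seen. Their mean was 4.61, 3.54, 3.89 and 6.55 log2(TPM + 1) in control samples 1 to 4 and 4.57, 4.49, 3.32 and 3.61 in Siglec-XII samples 1 to 4. Pou2f3 followed it with r = 0.93 (exact permutation p = 0.00702, adjusted 0.233 over the 68 relations of both families; rho = 0.71, p = 0.0576, adjusted 0.490). The value was 0.93 within groups, 0.67 without control 4 and 0.48 without control 4 and Siglec-XII sample 3, so its size rested in part on these samples. Flg, the filaggrin gene of the outer epidermis, was 415 TPM in control 4 and between 13.1 and 41.4 TPM in the other 7 samples, and control 4 was likewise the highest in Pou2f3. Flg alone had r = 0.96 with Pou2f3. With the squamous mean, Pou2f3 had r = 0.58 (exact permutation p = 0.119, adjusted 0.449), and its rho was 0.71 with either mean. Control 1, the highest in the squamous mean at 9.96 log2(TPM + 1), had 0.580 TPM of Pou2f3. Both lists were chosen after the data had been seen, so p-values with their means are descriptive only. Ptgs1 and Alox5 had r = 0.83 and 0.84 with the cornified mean (exact permutation p = 0.0137 and 0.0199, adjusted 0.233 and 0.270), and 0.34 and 0.16 without control 4 and Siglec-XII sample 3. After median centring, r with the cornified mean was 0.68 for Ptgs1, 0.04 for Alox5 and 0.86 for Pou2f3. Trpm5 had r = 0.10 with it but 0.70 with the squamous mean (exact permutation p = 0.0523, adjusted 0.358; rho = 0.88, p = 0.00724, adjusted 0.475), and the latter was 0.72 without controls 1 and 4, 0.45 without control 1 and 0.39 after median centring.

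**Figure D5:**
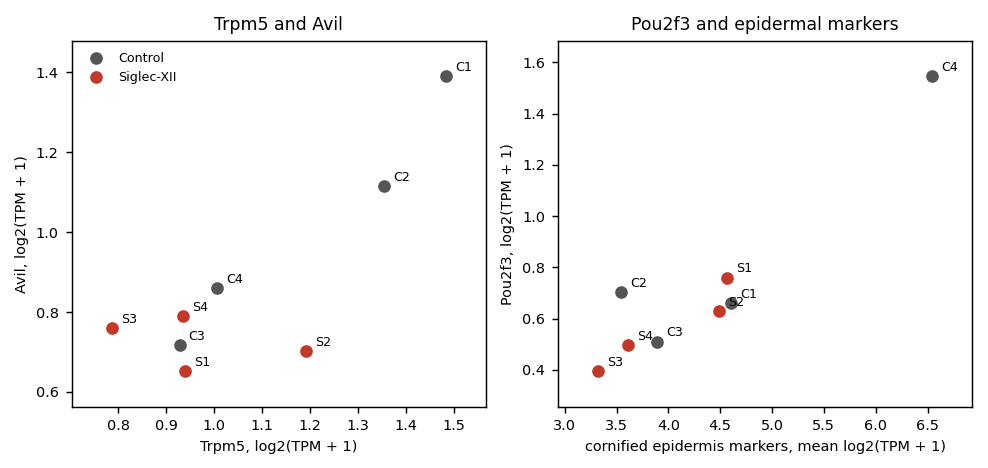
The left plot sets Avil against Trpm5 and the right plot sets Pou2f3 against the mean of 8 cornified epidermis markers, all in log2(TPM + 1), in control (grey, C) and Siglec-XII (red, S) samples. Controls 1 and 2 lie apart at the upper right of the left plot, and control 4 lies alone at the upper right of the right plot.

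The genes most alike to the members across samples were not other tuft cell genes. Among the 13164 genes at 1 TPM, the 10 with the highest r to the mean z-score of Ptgs1, Trpm5 and Sh2d6 were Clba1 (2 rows, each 0.97), Dpy19l1 (0.95), Fmo2 (0.94), Dkk3 (0.94), Fxyd5 (0.94), the immunoglobulin gene Igkc (0.93), Coro1a (0.93), Jchain (0.92) and Gm23630 (0.92), given as a description over 8 samples. Against the mean of the other 2 members, Ptgs1 itself had r = 0.38, Sh2d6 0.18 and Trpm5 a value near 0, which placed them at ranks 2629, 4661 and 7174. Taken alone among genes at 0.1 TPM, Pou2f3 was most alike to Mroh3 (0.98), Zfp951, Irx3 and Tfap2e, with Flg at 0.96, Gfi1b to Ifi44 (0.99), Avil to Tmed6 (0.97), Trpm5 to Fank1 (0.97) and Dclk1 to Smbd1 (0.96). No member was among the 10 genes most alike to another.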

How the data were processed

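The deposited table holds 1 value per gene and sample, and per the submitters' processing notes kallisto 0.45.0 and GRCm38 were used. The authors deposited log2(TPM + 1) without adjustment between samples, and the 8 columns were matched to samples by name. The study's methods name another kallisto version and a human reference, but 98.3% of the identifiers are in GENCODE M21, a mouse annotation. The library kit is given as total RNA in the labels and as mRNA in the methods.

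Differences were fitted with limma 3.58.1 (trend) in R 4.3.3 over all genes that reached 1 TPM in 4 or more samples, and again at 0.1 TPM, with Benjamini-Hochberg adjustment and a limit of 0.05. Simulated data with known changes were used to check it. Correlations were tested by exact permutation (scipy 1.17.1). Alternatives were other filters, a pseudocount of 0.1, median, quantile and epithelial centring, array weights, the sample number as a block, summed repeated symbols and samples left out. The members and lists were chosen with earlier results of these data known. Named genes were the members, other tuft cell genes past 0.05 unadjusted or among the 2 highest of a role, the 10 most alike genes and leading markers, and Il17rb, Gng13, Plcb2, Hpgds, Alox5ap, Rgs13, Siglecf, Dclk3 and Dcx were named after their values were seen. TPM keeps no depth, so the number of samples limits the precision. Irag2 is the same gene as Lrmp, and RefSeq promoters matched 7 members.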

Additional observations from a re-analysis of the deposited data

Results flagged for a closer look

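In 4 of 80 groups of 4 samples examined (members, named genes and marker means), 1 sample lay farther from the others than Dixon's 95% limit allows, and chance flags about 1 group in 20. Alox5 in control 4 was 0.77 log2(TPM + 1) against 0.53 to 0.57 in the other controls (gap over range 0.852). Ascl2 in Siglec-XII sample 1 was 3.14 against 2.52 to 2.60 (0.874). The smooth muscle mean in Siglec-XII sample 4 was 5.37 against 6.33 to 6.50 (0.846). The T cell mean in Siglec-XII sample 3 was 0.23 against 0.39 to 0.42 (0.840).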

How the results depend on the processing

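No member and no other tuft cell gene was called under any of the alternatives run, and adjusted p of the members ranged from 0.288 to 0.999 over 155 refits, of which 141 kept the sign. The sign turned under median centring for Dclk1 (0.17), Alox5 (0.24), Gfi1b (0.12) and Sh2d6 (0.071), under quantile normalization for Dclk1 (0.055) and Alox5 (0.091), under array weights for Trpm5 (0.0076), and for Alox5 without Siglec-XII samples 3 and 4 (0.0053) or with a sample left out (-0.035 to 0.045). In alternatives chosen after seeing the data it turned without controls 1 and 4 for Dclk1 (0.060) and Alox5 (0.053), and with the squamous mean as a covariate for Dclk1 (0.0059) and Alox5 (0.034). Genes called numbered 5, against 18 with array weights, 2 without Siglec-XII samples 3 and 4, 3 without a filter, at 5 TPM (where no member was tested), without controls 1 and 4 or with the squamous covariate, and 2 to 6 with 1 sample left out, the lowest without Siglec-XII sample 2, with 3 without sample 1 or 4 of that group. The causes were not tested. The sample numbers did not pair the samples (r of same-numbered deviations -0.20 to 0.10), and with the replicate block 4 genes and no member were called. Without the 2 farthest samples r was -0.12 for Trpm5 and Avil, -0.33 for Pou2f3 and Alox5 and -0.058 for Alox5 and Ptgs1. Of the 10 most alike genes, 4 were shared under median centring, 1 within groups and 0 with all 8 members.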
